A study of Rattus norvegicus with 15 samples.

Results

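31 genes of rat lung were described here, chosen from a table of RNA sequencing values because they stood higher than in control lungs in both exposed groups, at a similar level in each. Of 22250 genes in the table, 13172 reached at least 1 FPKM (sequenced fragments relative to transcript length and library size, the deposited unit) in at least 5 of the 15 libraries. On group means of log2(FPKM + 1), the chosen genes differed from control by at least 1 in COPD lungs and by at least 1 in WDD lungs, and WDD and COPD lungs lay less than 0.5 apart. A difference of 1 on this scale is a 2-fold difference of FPKM + 1. In all, 39 genes met these bounds, and 8 were left out by name as genes of ribosomes, the respiratory chain or the proteasome. Of the 31, 19 carry a gene symbol and 12 are listed only by a locus name. Because all 3 contrasts were used to choose them, their differences between the groups are given as a description, without p-values.

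The study sequenced RNA from lungs of wild-type rats in 15 libraries, 5 in each group. The WDD group received lipopolysaccharide (LPS, from the outer membrane of bacteria) together with smoke through the trachea, and in addition the herbal preparation Wendan Decoction into the stomach. The COPD group received the LPS and smoke alone, a model of chronic obstructive pulmonary disease, and the control group was normal. Not given in the sources used here are strain, age, dose and the time of sampling. The 15 libraries include no group that received the decoction without the exposure. Nothing in the labels ties each library to its own rat, so the p-values given for other genes cover no more than the spread between these samples, which may be technical.

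The genes with known roles fall into a few kinds. Ccl19 and Cxcl13 are chemokines of lymphoid tissue: Ccl19 guides T cells and dendritic cells that carry the receptor Ccr7, and Cxcl13 draws B cells that carry Cxcr5 into follicles. Such follicles can form beside the airways of chronically inflamed lungs. Most of the other genes encode small proteins used by nearly every cell, for RNA splicing, protein folding, translation, redox balance and the actin cytoskeleton. The transcripts of such genes are short and abundant.

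Promoter sequences of 4 of the genes are shown because these genes stand for the chemokines, the redox proteins and the most abundant member. Each runs from 250 bases before to 50 bases after the start of transcription, 5′ to 3′ on the gene's strand, from RefSeq on the rat build GRCr8. Capitals mark TATAAA (the TATA box), CCAAT (the CCAAT box), GGGCGG (the GC box), TGACG (the core of the cyclic AMP response element) and TGACNNNGC (the core of the antioxidant response element), each searched on both strands. TGACG and TGACNNNGC can overlap. The sequences lie at chr14:13917871-13918170 on the minus strand for Cxcl13, chr5:61761115-61761414 on the minus strand for Ccl19, chr5:77519636-77519935 on the minus strand for Txn1 and chrX:30761361-30761660 on the plus strand for Tmsb4x.
Cxcl13: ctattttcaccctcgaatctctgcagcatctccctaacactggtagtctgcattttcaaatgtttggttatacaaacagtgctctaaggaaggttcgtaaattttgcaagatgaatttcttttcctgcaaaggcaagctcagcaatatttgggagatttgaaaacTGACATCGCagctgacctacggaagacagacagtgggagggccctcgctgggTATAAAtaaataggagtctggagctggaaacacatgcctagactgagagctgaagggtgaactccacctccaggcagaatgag
Ccl19: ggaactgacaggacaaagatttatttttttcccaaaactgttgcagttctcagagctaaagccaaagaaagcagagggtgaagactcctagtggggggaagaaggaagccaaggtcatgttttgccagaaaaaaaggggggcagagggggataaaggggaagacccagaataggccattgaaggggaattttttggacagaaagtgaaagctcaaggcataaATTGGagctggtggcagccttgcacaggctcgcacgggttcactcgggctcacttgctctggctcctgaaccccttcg
Txn1: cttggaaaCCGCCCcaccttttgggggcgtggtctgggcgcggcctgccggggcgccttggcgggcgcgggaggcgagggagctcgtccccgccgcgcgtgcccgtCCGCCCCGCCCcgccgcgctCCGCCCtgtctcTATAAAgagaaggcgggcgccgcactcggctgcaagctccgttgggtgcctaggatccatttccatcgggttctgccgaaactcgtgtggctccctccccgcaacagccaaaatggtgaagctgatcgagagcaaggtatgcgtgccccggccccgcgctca
Tmsb4x: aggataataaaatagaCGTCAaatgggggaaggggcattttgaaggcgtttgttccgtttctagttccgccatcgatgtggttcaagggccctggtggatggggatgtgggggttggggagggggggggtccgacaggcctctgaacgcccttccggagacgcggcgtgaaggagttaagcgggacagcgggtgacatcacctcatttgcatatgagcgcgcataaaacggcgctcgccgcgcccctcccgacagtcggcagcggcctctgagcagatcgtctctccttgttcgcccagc

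A promoter entry was matched by symbol for 15 of the 31 genes and for 9904 of the genes that passed the filter. For each symbol only the first entry was used. The TATA box was found in 3 of the 15 (Cxcl13, Gnas and Txn1), 20.0%, against 7.02% of the 9904 promoters. Over all 33469 promoter entries its share was 14.2%. Txn1 held 4 GC boxes beside its TATA box, and the GC box occurred in 53.3% of the 15 promoters and 61.5% of the 9904. TGACG was present in 40.0% of the 15 and 31.0% of the 9904, among them Tmsb4x and Gnas. The antioxidant response core was present in 13.3%, namely Cxcl13 and Lsm7, against 14.8%, and CCAAT in 20.0% against 37.5%. The median GC content was 60.0% in the 15 promoters and 60.7% in the 9904. These matches describe the letters in the window only.

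The groups differed in the makeup of whole libraries. Mitochondrially encoded genes held 19.1 to 26.5% of the FPKM sum in WDD, 33.7 to 65.0% in COPD and 5.19 to 9.62% in control libraries. The median FPKM of the genes that passed the filter was 9.60 to 10.3 in WDD, 5.08 to 7.47 in COPD and 12.2 to 13.1 in control libraries. The median of housekeeping genes listed as long minus that of housekeeping genes listed as short was -3.92 to -3.26 log2 units in WDD, -4.38 to -3.25 in COPD and -2.42 to -1.23 in control libraries. Control 1 held the -2.42, and the other controls lay between -1.57 and -1.23. Sftpc, the surfactant protein of alveolar type 2 cells, was listed at 1842 FPKM or more in every library, as fits lung. From the steps between low values, the sequencing depth was estimated at 0.878 to 1.11 times that of control 2.

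On the deposited scale, few genes raised by the exposure kept their level in WDD lungs. COPD lungs exceeded control by at least 1 in 513 genes, 3.89% of those that passed the filter, and WDD lungs did so in 232 genes, 1.76%. In 447 of the 513, WDD lungs lay at least 0.5 below COPD lungs, in 3 they lay at least 0.5 above, and in 24 they lay within 0.5 of COPD but less than 1 above control. The median gene that passed the filter differed by -0.23 between WDD and control lungs and by -0.81 between COPD and control lungs. The 31 genes had medians of 1.22 and 1.33 in these contrasts, which the rule set at 1 or more, and -0.11 between WDD and COPD lungs. The plot of both differences for all genes shows the 31 in a narrow band along the diagonal.

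**Figure D1:**
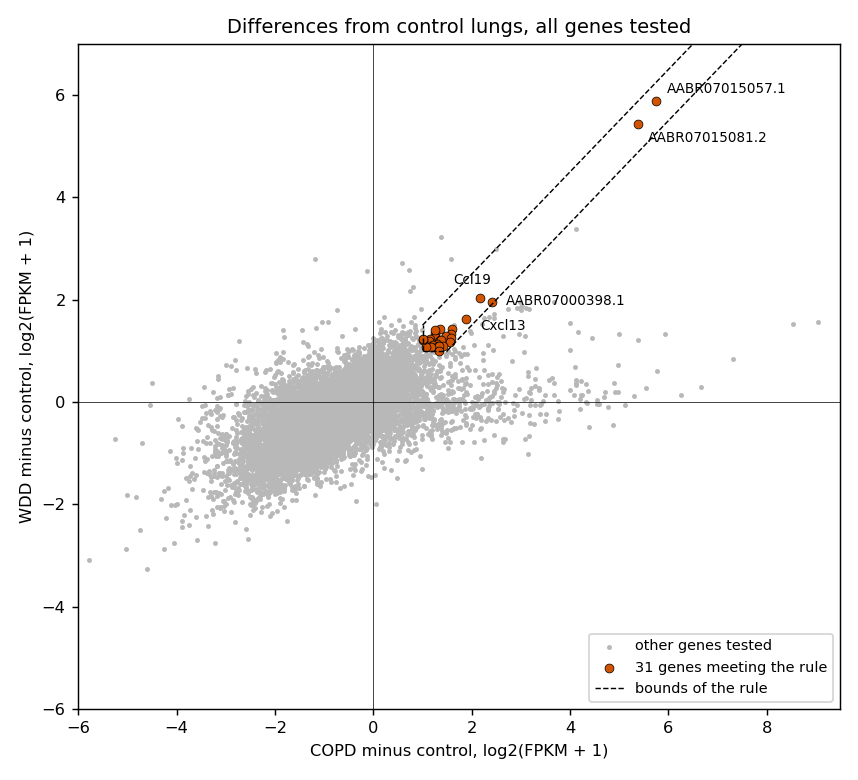
Difference from control on log2(FPKM + 1) in COPD lungs (horizontal axis) and in WDD lungs (vertical axis) for 13172 genes (grey points), with the 31 genes in orange and dashed lines at the bounds of the rule. Apart from AABR07015057.1 and AABR07015081.2, above 5 on both axes, the 31 lie close to the lower corner of the bounds.

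The bounds of the rule separated close values. Closest inside the bound on COPD minus control were Snrpd2 at 1.00 and Tmsb4x at 1.01, and closest outside were AC099453.1 and Cfd, both at 0.96. For WDD minus control, LOC103695118 at 1.00 and Tma7 at 1.07 lay just inside, and Fdx2 at 0.99 and Bpifa1 at 0.98 just outside. For WDD minus COPD, AABR07000398.1 at -0.44 and Rbis at -0.37 lay inside, and AABR07015078.1 at 0.50 and Ubd at -0.57 outside.

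In limma, which was fitted to all genes, 30 of the 31 were called higher in WDD than in control lungs at an adjusted p under 0.05, all but Sfrp2, beside 6.35% of all genes. All 31 were called higher in COPD than in control lungs, beside 8.23% of all genes, while 31.0% of all genes were called lower in WDD and 66.4% lower in COPD than in control lungs. In 25 genes every WDD library lay above every control library, beside 6.76% of all genes, and in 11 every COPD library did, beside 3.99%. The rule used these contrasts, so nothing is read from the counts. Ccl19, Cxcl13, Pax5, Sfrp2, Tma7 and Tnni3 were the 6 whose WDD and control libraries overlapped.

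Libraries of a group did not take part equally. Control 1 was the highest control library in 24 of the 31 genes, and in 24.7% of all genes. COPD 2 was the highest COPD library in 16 of them and in 31.8% of all genes. COPD 1 was the lowest in 15 and COPD 5 in 14, against 39.8% and 36.1% of all genes. WDD 5 was the highest WDD library in 16 and WDD 4 in 9, against 20.4% and 13.8% of all genes. COPD 5 stood apart over all genes: the SD of its log2 difference from each other COPD library was 0.90 to 0.97, against at most 0.56 for every other pair of libraries within a group. Without COPD 5, 27 of the 31 genes met the rule. The median SD on log2(FPKM + 1) over the 31 genes was 0.22 in WDD, 0.57 in COPD and 0.45 in control lungs, and over all genes 0.18, 0.40 and 0.22 in the same groups.

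**Figure D2:**
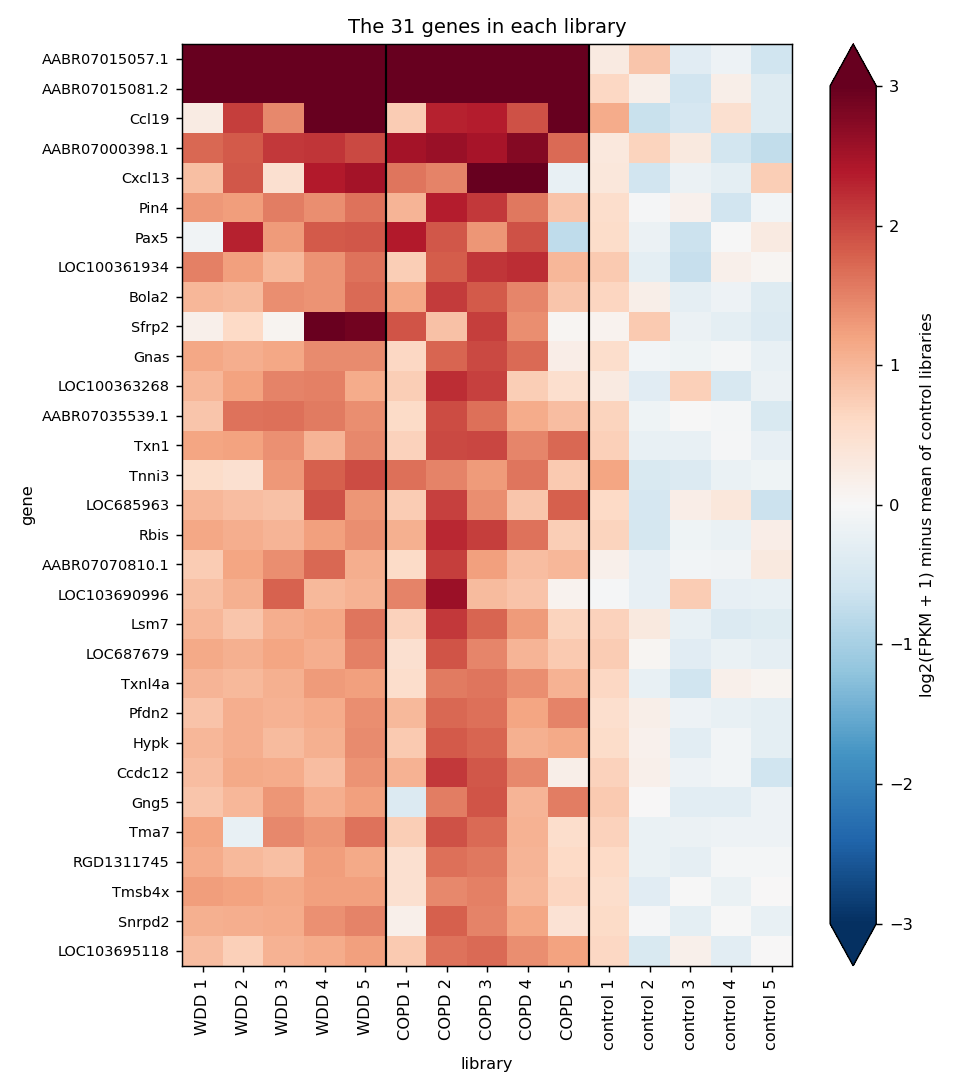
Each of the 31 genes (rows) in each library (columns: WDD, COPD and control, 5 each) as log2(FPKM + 1) minus the mean of the 5 control libraries; the colour scale ends at -3 and 3. COPD 2 and COPD 3 are darker than COPD 1 and COPD 5 in most rows, and control 1 is warm in most rows.

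Both chemokines were higher in most exposed libraries, with a wide spread. Ccl19 stood at 5.62, 22.4, 14.2, 47.3 and 52.7 FPKM in WDD 1 to 5, at 8.47, 26.7, 27.5, 19.9 and 63.2 FPKM in COPD 1 to 5, and at 11, 2.48, 2.91, 6.72 and 3.22 FPKM in control 1 to 5. WDD 1 and COPD 1 lay below control 1, and every other WDD and COPD library lay above all controls. The mean was 28.4 ± 20.6 FPKM in WDD, 29.2 ± 20.5 in COPD and 5.27 ± 3.62 in control lungs (SD, n = 5 each), with differences of 2.03 ± 0.56 (WDD minus control, ± SE) and 2.18 ± 0.56 (COPD minus control) log2 units. Here and below, each SE comes from 1 limma fit of all 3 groups and uses their common spread. Ccl19 met the rule without any 1 of the 15 libraries.

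Cxcl13 stood at 13.7, 27.6, 9.95, 40.3 and 43.4 FPKM in WDD 1 to 5, at 22.8, 21.1, 79.8, 69.3 and 5.80 FPKM in COPD 1 to 5, and at 8.95, 4.29, 5.93, 5.40 and 12.1 FPKM in control 1 to 5. COPD 5 and WDD 3 lay within the control range, and all other exposed libraries lay above it. The differences were 1.62 ± 0.57 (WDD minus control) and 1.88 ± 0.57 (COPD minus control) log2 units. Without COPD 5, Cxcl13 no longer met the rule. WDD 4 and WDD 5, which held the highest WDD values of both chemokines, were the most alike of all pairs of libraries within a group, with an SD of 0.23 for their log2 difference over all genes, against at least 0.34 for the other pairs.

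The receptors did not follow their ligands in both groups. Ccr7 had medians of 10.1 FPKM in WDD, 4.12 in COPD and 16.6 in control lungs, and fell in COPD lungs (log2 difference -1.86, adjusted p = 1.86e-05, limma) while WDD lungs did not pass (-0.41, adjusted p = 0.275, limma). Cxcr5 had medians of 0.954 FPKM in WDD, 4.61 in COPD and 1.16 in control lungs, and rose in COPD lungs (1.17, adjusted p = 0.00153, limma), with -0.28 in WDD lungs (adjusted p = 0.481, limma). Ccl21, the other ligand of Ccr7, had medians of 165 FPKM in WDD, 32.2 in COPD and 76.2 in control lungs. It fell in COPD lungs (-1.33, adjusted p = 0.0122, limma), with 0.88 in WDD lungs (adjusted p = 0.134, limma). These signs in COPD lungs were the same under all 4 other scalings of the libraries. Of 33 other genes of cytokines and chemokines, none was called higher (1 at an unadjusted p under 0.05, limma) and 3 lower in WDD than in control lungs, with a median difference of 0.04, and 16 were called higher and 7 lower in COPD than in control lungs, with a median of 0.85. Without COPD 5, 30 of these genes passed the filter, 13 were called higher and 11 lower in COPD lungs, and the median was 0.51; without any 1 of COPD 1 to 4, again with 30 genes, it was 0.34 to 0.52. Without WDD 1, WDD 3 or control 3, 1 was called lower in WDD lungs. All genes had medians of -0.23 in WDD and -0.81 in COPD lungs. Of them, 6.35% were called higher and 31.0% lower in WDD lungs, and 8.23% higher and 66.4% lower in COPD lungs. Of 24 T and NK cell genes, 2 were called higher and 4 lower in WDD and 1 higher and 21 lower in COPD than in control lungs, where 66.4% of all genes were called lower. Without COPD 5, 5 were called higher in WDD lungs, and without WDD 1 or WDD 3, 4 were. Their summed FPKM was 402 to 542 in WDD, 118 to 243 in COPD and 382 to 473 in control libraries, and their part in the chemokine values was not tested.

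Pax5, the transcription factor that fixes the B cell lineage, was low throughout but higher in most exposed libraries. It stood at 0.958, 9.34, 4.05, 6.51 and 6.62 FPKM in WDD 1 to 5, at 9.88, 6.66, 4.26, 6.93 and 0.247 FPKM in COPD 1 to 5, and at 2.06, 0.871, 0.350, 1.07 and 1.53 FPKM in control 1 to 5. COPD 5 lay below every control library and WDD 1 among them, and the other 8 exposed libraries lay above all controls. The differences were 1.43 ± 0.51 (WDD minus control) and 1.35 ± 0.51 (COPD minus control) log2 units.

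Genes of B and plasma cells other than Pax5 were called lower in COPD lungs at a share near that of all genes. Of the 17 others that passed the filter, 2 were called higher and 3 lower in WDD than in control lungs, with a median difference of 0.10, and 1 was called higher and 11 lower in COPD than in control lungs, beside 66.4% of all genes lower, with a median of -1.34 against -0.81 for all genes. In WDD lungs 6.35% of all genes were called higher and 31.0% lower, and in COPD lungs 8.23% were called higher. Cd79a, part of the B cell receptor, fell in COPD lungs (-1.34, adjusted p = 9.09e-04, limma) and differed by 0.52 in WDD lungs (adjusted p = 0.199, limma). Ighm, the heavy chain of IgM, fell in COPD lungs (-1.73, adjusted p = 1.29e-05, limma) and rose in WDD lungs (0.78, adjusted p = 0.0243, limma). The rise of Ighm in WDD lungs did not pass without WDD 5, control 2, control 4 or control 5 (0.65 to 0.75, adjusted p = 0.0535 to 0.0738, limma). The summed FPKM of the list was 981 to 1186 in WDD, 133 to 295 in COPD and 649 to 1403 in control libraries. In whole lung RNA, fewer cells of a type and less RNA per cell cannot be told apart. The median of these 17 genes between COPD and control lungs was below 0 under every scaling tried, from -1.80 to -0.35.

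Sfrp2, a secreted modulator of Wnt signals made by fibroblasts, rested on few libraries. It stood at 1.38, 2.22, 1.27, 15.7 and 14.8 FPKM in WDD 1 to 5, at 6.82, 2.92, 8.02, 4.63 and 1.21 FPKM in COPD 1 to 5, and at 1.30, 2.66, 0.878, 0.740 and 0.594 FPKM in control 1 to 5. WDD 4 and WDD 5 were far above the other WDD libraries, which lay within the control range. The differences were 1.34 ± 0.55 in WDD and 1.26 ± 0.55 in COPD lungs. Without WDD 4 or without WDD 5 it no longer met the rule.

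Tnni3, the cardiac form of troponin I, stood at 6.93, 6.57, 12.4, 17.7 and 20.0 FPKM in WDD 1 to 5, at 16, 14.3, 12.1, 15.5 and 8.41 FPKM in COPD 1 to 5, and at 11.3, 2.95, 3.08, 3.73 and 3.98 FPKM in control 1 to 5. Control 1 lay above WDD 1, WDD 2 and COPD 5, and the other 4 controls lay below every exposed library. The differences were 1.22 ± 0.33 in WDD and 1.36 ± 0.33 in COPD lungs. Rat lung can hold heart-type muscle in the walls of its large veins, so other muscle genes are given beside it. Of 25 cardiac and skeletal muscle genes, 9 passed the filter, and their summed FPKM was 43.4 to 67.4 in WDD, 43.9 to 64.1 in COPD and 41.0 to 61.8 in control libraries. Myh6, the heart myosin heavy chain, was at most 0.123 FPKM and Nppa, the atrial natriuretic peptide, at most 0.423 FPKM in any library. Of the other 8, 1 was called higher and none lower (1 at an unadjusted p under 0.05, limma) in WDD than in control lungs, with a median of 0.25 (0.15 without WDD 4). Of all genes, 6.35% were called higher and 31.0% lower in WDD lungs. In COPD lungs 2 of the 8 were called higher and 4 lower, beside 8.23% of all genes higher and 66.4% lower. Their median was -0.51, against -0.81 for all genes, and it was 0.33 after median-of-ratios scaling and 0.37 after quantile normalisation. Tnnt2, cardiac troponin T, rose in WDD lungs (0.81, adjusted p = 0.00575, limma) and differed by 0.32 in COPD lungs (adjusted p = 0.168, limma). Tnnc1, the troponin C of heart and slow muscle, differed by 0.34 in WDD lungs (adjusted p = 0.282, limma) and rose in COPD lungs (2.52, adjusted p = 1.08e-07, limma). Myl4, an atrial myosin light chain, rose in COPD lungs as well (1.79, adjusted p = 0.00418, limma). COPD 5 held 29.2 FPKM of Myl4, while COPD 1 to 4 held 1.69 to 4.48 FPKM and the controls 0.297 to 1.19 FPKM. Those that fell in COPD lungs were Actc1 and Acta1, the sarcomeric actins (-2.06 and -0.88, adjusted p = 1.57e-04 and 0.00434, limma), Tnnt3, fast troponin T (-0.56, adjusted p = 0.00380, limma), and Pln, phospholamban (-0.61, adjusted p = 0.0290, limma). Tnnt3 and Pln thus fell less than the median of all genes, and Acta1 lay close to it. Tnnt2 passed in COPD lungs without COPD 1 (0.48, adjusted p = 0.0338, limma), and Pln did not without COPD 1, COPD 4, control 1 or control 4 (-0.59 to -0.49, adjusted p = 0.0514 to 0.0838, limma). The part of muscle cells in the Tnni3 values was not tested.

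Gnas, the stimulatory G protein alpha subunit that switches on adenylyl cyclase, was even across WDD lungs and uneven across COPD lungs. It stood at 180, 171, 178, 215 and 215 FPKM in WDD 1 to 5, at 123, 268, 319, 261 and 92.2 FPKM in COPD 1 to 5, and at 114, 74.7, 72.3, 75.9 and 67.9 FPKM in control 1 to 5. All WDD libraries lay above all controls, and COPD 5 lay below control 1. The differences were 1.25 ± 0.28 in both WDD and COPD lungs. The SD on log2(FPKM + 1) was 0.16 in WDD, 0.79 in COPD and 0.30 in control lungs. Both SEs use the common spread of the 3 groups, so the SE in WDD lungs includes the spread of COPD lungs. Gnas lies in an imprinted locus with several transcripts and an antisense RNA, and whether counting used strand is not given in the sources used here, so its value may include reads from the antisense partner.

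**Figure D3:**
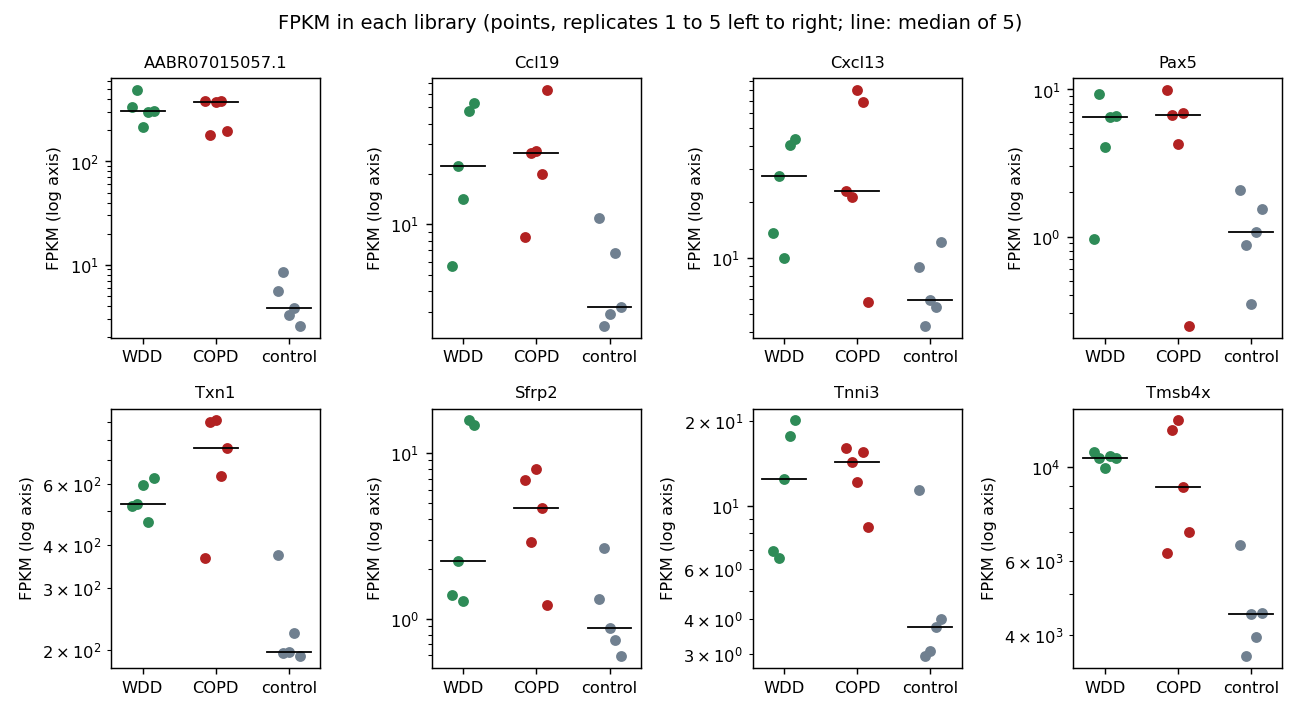
FPKM of 8 of the genes in each library on a logarithmic axis, for WDD, COPD and control lungs (points in order of replicate number, line at the median of 5). AABR07015057.1 separates the exposed lungs from control without overlap. For Ccl19, Cxcl13, Pax5, Sfrp2, Tnni3, Txn1 and Tmsb4x, 1 or more exposed libraries lie below the highest control. Control 1 is the highest control for Ccl19, Pax5, Txn1, Tnni3 and Tmsb4x.

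Txn1, thioredoxin, which reduces disulfide bonds of other proteins, was the second most abundant of the 31. It stood at 517, 524, 596, 465 and 623 FPKM in WDD 1 to 5, at 367, 905, 912, 632 and 759 FPKM in COPD 1 to 5, and at 374, 196, 197, 224 and 192 FPKM in control 1 to 5. Every WDD library lay above every control library, and COPD 1 lay just below control 1. The differences were 1.24 ± 0.24 in WDD and 1.57 ± 0.24 in COPD lungs. Txn1 met the rule under none of the other 4 scalings, with WDD minus COPD between -0.98 and -0.15.

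Among genes that work with or resemble Txn1, Prdx1 was called higher in both groups and Txnrd1 in COPD lungs. Prdx1, a peroxidase that thioredoxin recharges, rose by 0.55 in WDD (adjusted p = 0.0415, limma) and by 0.48 in COPD lungs (adjusted p = 0.0414, limma). Leaving out 1 library ended the WDD call for 7 of the libraries (WDD 1, 4 and 5 and control 2 to 5, adjusted p = 0.0687 to 0.108, limma) and the COPD call for 7 (WDD 1, COPD 2 and 3 and control 2 to 5, adjusted p = 0.0505 to 0.122, limma). After scaling to the FPKM sum, Prdx1 differed by -0.08 in COPD lungs. Prdx5, another peroxidase of this family, differed by 0.54 in WDD and by 2.42 in COPD lungs. Its COPD difference lay between 1.86 and 3.35 under the other 4 scalings. Txnrd1, the reductase that recharges thioredoxin, had medians of 22.5 FPKM in WDD, 51.4 in COPD and 36.4 in control lungs, and rose in COPD lungs (0.76, adjusted p = 0.0271, limma), with -0.57 in WDD lungs (adjusted p = 0.141, limma). COPD 5 held 168 FPKM of Txnrd1, while COPD 1 to 4 held 37.9 to 52.7 FPKM and the controls 27.9 to 38.8 FPKM. Without COPD 5 the COPD difference of Txnrd1 was 0.39 (adjusted p = 0.0155, limma), and the WDD difference of -0.57 then passed (adjusted p = 0.00177, limma). Without control 1 or control 2 the COPD difference did not pass (0.69 and 0.73, adjusted p = 0.0618 and 0.0545, limma). Txn2, the mitochondrial thioredoxin, differed by 0.41 in WDD (adjusted p = 0.0636, limma) and by -0.14 in COPD lungs (adjusted p = 0.470, limma). The WDD difference of Txn2 passed without WDD 3, COPD 1, COPD 2 or COPD 5 (adjusted p = 0.0257 to 0.0495, limma). Of 27 other antioxidant enzymes, 8 were called higher and none lower (1 at an unadjusted p under 0.05, limma) in WDD than in control lungs, with a median of 0.35, and 8 were called higher and 12 lower in COPD than in control lungs, with a median of -0.23. Those called higher in WDD lungs numbered 3 without WDD 5, 4 without control 3, 2 without control 5 and 13 without COPD 5. In COPD lungs the median was -0.38 without COPD 2 or COPD 3 and -0.13 without control 1. Sod2, the mitochondrial superoxide dismutase, rose in COPD lungs (3.39, adjusted p = 2.72e-08, limma) and differed by -0.23 in WDD lungs (adjusted p = 0.546, limma). The list's median in COPD lungs changed sign with the scaling, from -0.80 after scaling to the FPKM sum to 0.65 after median-of-ratios scaling, and that in WDD lungs lay between -0.04 and 0.62. Txn1 is also in a list of antioxidant response (NRF2) and glutathione genes. Of its 21 other genes, 1 was called higher and 4 lower in WDD lungs, with a median of -0.02. In COPD lungs 5 were called higher and 10 lower, with a median of -0.49. Of all genes, 6.35% were called higher and 31.0% lower in WDD lungs, and 8.23% higher and 66.4% lower in COPD lungs.

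Tmsb4x, thymosin beta 4, which holds actin monomers in reserve, was the most abundant of the 31. It stood at 10834, 10466, 9950, 10602 and 10511 FPKM in WDD 1 to 5, at 6251, 12238, 12871, 8950 and 7031 FPKM in COPD 1 to 5, and at 6537, 3569, 4488, 3958 and 4514 FPKM in control 1 to 5. WDD libraries were within a narrow range above all controls, and COPD 1 fell below control 1. The differences were 1.21 ± 0.24 in WDD and 1.01 ± 0.24 in COPD lungs. Under quantile normalisation, which fixes the value of each rank, they turned to -0.14 and -0.17. Actb and Actg1, the cytoplasmic actins, were called lower in both groups on the deposited values, Actb at -0.44 in each (adjusted p = 0.0333 in WDD and 0.0173 in COPD lungs, limma). The WDD call of Actb did not hold without any 1 of WDD 2 to 5 or control 2 to 5 (adjusted p = 0.0514 to 0.0815, limma), nor the COPD call without COPD 5 (adjusted p = 0.0548, limma). After median-of-ratios scaling, COPD minus control turned to 0.49 for Actb and 0.12 for Actg1. Of 28 other actin and thymosin genes, 4 were called higher and 3 lower in WDD and 14 higher and 5 lower in COPD than in control lungs, with medians of 0.16 and 0.50. With 1 library left out, the WDD counts were 2 to 6 higher and 1 to 4 lower, with 2 higher and 1 lower without WDD 4, control 3, control 4 or control 5, 2 higher without WDD 1 or control 2 and 1 lower without WDD 5. Over all genes, 6.35% were called higher and 31.0% lower in WDD lungs, and 8.23% higher and 66.4% lower in COPD lungs. After scaling to the FPKM sum, the medians of the 28 genes were -0.23 in WDD and -0.04 in COPD lungs.

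The splicing genes Snrpd2, Lsm7 and Txnl4a encode a core Sm protein, a protein of the Lsm ring that binds U6 RNA and decaying messages, and a protein of the U5 particle. Snrpd2 stood at 90.0, 91.4, 92.7, 110 and 120 FPKM in WDD 1 to 5, at 47.2, 150, 120, 95.3 and 57.6 FPKM in COPD 1 to 5, and at 63.1, 41.1, 34.5, 42.1 and 36.0 FPKM in control 1 to 5. Lsm7 ranged from 60.5 to 104 FPKM in WDD, from 53.7 to 150 in COPD and from 25.0 to 55.4 in control libraries, and Txnl4a from 16.4 to 20.2 in WDD, from 11.6 to 25.7 in COPD and from 4.78 to 12.6 in control libraries. For all 3 genes the WDD libraries lay above every control, while COPD 1 lay below control 1. COPD 5 also lay below control 1 for Snrpd2 and Lsm7. The differences in WDD were 1.22 ± 0.26 for Snrpd2, 1.14 ± 0.28 for Lsm7 and 1.11 ± 0.22 for Txnl4a, and in COPD lungs 1.00 ± 0.26, 1.30 ± 0.28 and 1.22 ± 0.22 in the same order.

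Among other small splicing and RNA-binding proteins, more were called higher than lower in each group on the deposited values. Of 32 that passed the filter, 20 were called higher and none lower (1 at an unadjusted p under 0.05, limma) in WDD than in control lungs, with a median of 0.58, and 15 were called higher and 4 lower in COPD than in control lungs, with a median of 0.32 (0.21 without COPD 2). Over all genes, 6.35% were called higher and 31.0% lower in WDD lungs, and 8.23% higher and 66.4% lower in COPD lungs. Snrpd1, another Sm protein, rose in WDD (1.07, adjusted p = 4.65e-04, limma) and in COPD lungs (1.83, adjusted p = 3.46e-07, limma), and Snrpd3 rose by 0.84 and 0.57 in these groups. Cirbp, a cold-induced RNA-binding protein, differed by -0.35 in WDD lungs (adjusted p = 0.164, limma) and fell in COPD lungs (-2.25, adjusted p = 4.17e-08, limma). After scaling to the FPKM sum, the medians of the 32 genes were 0.21 in WDD and -0.22 in COPD lungs.

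**Figure D4:**
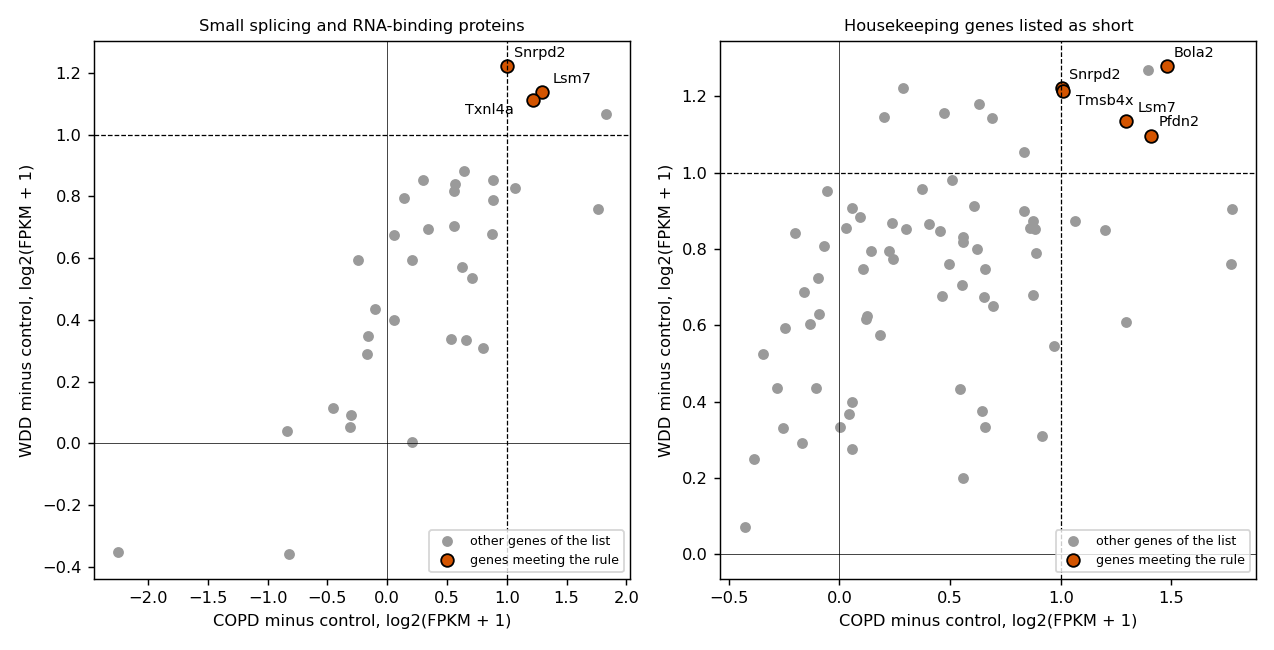
Difference from control in COPD lungs (horizontal axis) and WDD lungs (vertical axis) on log2(FPKM + 1) for small splicing and RNA-binding proteins (left, 35 genes) and housekeeping genes listed as short (right, 74 genes), with members in orange and dashed lines at 1. Most other genes of both lists lie above 0 on both axes, Snrpd1 (grey, left) lies past both lines, Snrpf (grey, both) lies further right than every member, and Cox17, the grey point past both lines on the right, was left out by name.

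Prefoldin hands unfolded actin and tubulin to a chaperonin. Its subunit Pfdn2 stood at 28.7, 34.0, 32.6, 34.0 and 41.6 FPKM in WDD 1 to 5, at 31.1, 53.1, 50.6, 36.2 and 44.9 FPKM in COPD 1 to 5, and at 22.0, 17.3, 13.8, 13.1 and 12.2 FPKM in control 1 to 5. Neither exposed group overlapped the controls, and the differences were 1.10 ± 0.18 in WDD and 1.41 ± 0.18 in COPD lungs. The subunits Pfdn1, Pfdn4, Pfdn5 and Pfdn6 rose by 0.96, 0.80, 1.16 and 0.87 in WDD lungs (adjusted p = 6.25e-04, 0.00149, 1.14e-04 and 0.00779, limma). In COPD lungs Pfdn4, Pfdn5 and Pfdn6 rose by 0.96, 0.47 and 0.88 (adjusted p = 7.11e-05, 0.0194 and 0.00285, limma), and Pfdn1 differed by 0.37 (adjusted p = 0.0675, limma). Pfdn5 did not pass in COPD lungs without COPD 2, COPD 3 or control 3 (0.37 to 0.42, adjusted p = 0.0517 to 0.0583, limma), and Pfdn1 passed without COPD 1, COPD 5 or control 1 (0.46 to 0.48, adjusted p = 0.0172 to 0.0323, limma). After scaling to the FPKM sum, COPD minus control was -0.18 for Pfdn1 and -0.09 for Pfdn5, and for the others it was above 0 under each scaling.

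Hypk, a partner of the enzyme that acetylates new proteins, ranged from 150 to 207 FPKM in WDD, from 135 to 280 in COPD and from 62.0 to 114 in control libraries. Bola2, which handles iron-sulfur clusters, ranged from 93.4 to 156 FPKM in WDD, from 85.2 to 208 in COPD and from 36.3 to 74.3 in control libraries. Pin4, a prolyl isomerase, ranged from 48.7 to 63.2 FPKM in WDD, from 37.0 to 106 in COPD and from 13.1 to 29.1 in control libraries. Rbis, a ribosome biogenesis factor, ranged over 51.2 to 66.9 FPKM in WDD, 41.7 to 123 in COPD and 16.8 to 39.7 in control libraries. None of these 4 overlapped control in either exposed group. Their WDD minus control differences were 1.10 ± 0.21, 1.28 ± 0.24, 1.42 ± 0.26 and 1.18 ± 0.27 in that order, and their COPD minus control differences 1.32 ± 0.21, 1.48 ± 0.24, 1.59 ± 0.26 and 1.55 ± 0.27. Tma7, associated with the translation machinery, stood at 166, 62.0, 199, 184 and 227 FPKM in WDD 1 to 5, at 121, 275, 237, 151 and 105 FPKM in COPD 1 to 5, and at 119, 62.6, 64.7, 64.8 and 64.9 FPKM in control 1 to 5. WDD 2 lay below every control and control 1 above COPD 5, and all other exposed libraries lay above all controls. The differences of Tma7 were 1.07 ± 0.34 in WDD and 1.18 ± 0.34 in COPD lungs.

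With Ccdc12, a spliceosome component, and Gng5, a G protein gamma subunit, 13 members were grouped as small proteins used by nearly every cell. The grouping was made by hand, without protein lengths, after the values were seen. Ccl19 and Cxcl13 were not counted in it, whatever their size. WDD minus control ranged from 1.07 to 1.42 over the 13 and COPD minus control from 1.00 to 1.59. Control 1 was the highest control library in all 13. Their median log2(FPKM + 1) was 5.94 to 6.72 in WDD, 5.76 to 7.24 in COPD and 4.70 to 5.82 in control libraries, with control 1 at the top of the controls and COPD 2 at the top of COPD. COPD 2 also held the widest distance between long and short housekeeping genes, -4.38, and control 1 held the widest of the controls, -2.42. In WDD, WDD 5 held the widest, -3.92, and the top median, 6.72. The order did not match throughout COPD. COPD 4 held the narrowest distance, -3.25, with a median of 6.39, and COPD 1 held -3.47 with the lowest median, 5.76. The short list holds 5 of the 13 members, so the 2 measures are not independent.

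Of 69 housekeeping genes listed as short that are not among the 31, 54 were called higher and none lower (0 at an unadjusted p under 0.05, limma) in WDD than in control lungs, with a median of 0.76, and 31 were called higher and 1 lower in COPD than in control lungs, with a median of 0.41 (0.26, and 5 lower, without COPD 2). Of 37 listed as long, none was called higher in either group (0 at an unadjusted p under 0.05, limma), 34 were called lower in WDD and 37 in COPD lungs, with medians of -1.01 and -1.77. Of all genes, 6.35% were called higher and 31.0% lower in WDD lungs, and 8.23% higher and 66.4% lower in COPD lungs. The long genes' medians stayed below 0 under every scaling tried. The short genes' median in COPD lungs was -0.16 after scaling to the FPKM sum and above 0 under the others. What the length of the transcripts contributed to the values of the 13 members was not tested. Short genes of this kind often have processed copies elsewhere in the genome, and how reads that map to several places were counted is not given in the sources used here, so their levels are uncertain to that extent.

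AABR07015057.1 and AABR07015081.2 had by far the largest differences of the 31. AABR07015057.1 stood at 336, 491, 218, 300 and 308 FPKM in WDD 1 to 5, at 385, 179, 376, 390 and 199 FPKM in COPD 1 to 5, and at 5.52, 8.58, 3.24, 3.83 and 2.55 FPKM in control 1 to 5. AABR07015081.2 stood at 298, 311, 220, 318 and 263 FPKM in WDD 1 to 5, at 327, 164, 318, 328 and 249 FPKM in COPD 1 to 5, and at 8.94, 6.39, 3.33, 6.39 and 3.93 FPKM in control 1 to 5. Each exposed library exceeded the highest control by more than 10 times for both loci. The differences were 5.89 ± 0.29 (WDD minus control) and 5.75 ± 0.29 (COPD minus control) for AABR07015057.1, and 5.43 ± 0.23 and 5.37 ± 0.23 for AABR07015081.2. Under the other 4 scalings WDD minus control of AABR07015057.1 lay between 5.56 and 6.24. The sources used here give no gene name, role or position for either locus.

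Among the 13172 genes, 5 had every exposed library above 5 times the highest control. In 3 of them a control library was above 0, namely both loci above and AABR07015078.1, which is no member. AABR07015066.1 and AABR07063424.1, no members either, were listed at 0 in every control library. AABR07063424.1 was at 0.183 to 1.81 FPKM in WDD and 0.346 to 1.71 FPKM in COPD libraries. AABR07015078.1 was at 4.51 to 13.2 FPKM in WDD, 3.29 to 8.38 in COPD and 0 to 0.400 in control libraries, and missed the rule by its WDD minus COPD difference of 0.50. The table holds 10 loci whose names differ only in the last digits, counting AABR07015057.1, AABR07015081.2 and AABR07015078.1. These loci did not all move alike. AABR07015066.1 was at 1.09 to 50.9 FPKM in WDD and 0.173 to 181 FPKM in COPD libraries and listed at 0 in every control library. AABR07015055.1 reached 32.3 FPKM in WDD libraries and was listed at 0 in 4 COPD libraries and every control library. The other 5 were at most 0.190 FPKM in any library. The other 10 members without a gene symbol had mean values of 3.01 to 134 FPKM in WDD, 3.20 to 134 in COPD and 0.772 to 60.0 in control lungs. Their differences ranged from 1.00 to 1.96 in WDD and from 1.06 to 2.40 in COPD lungs. AABR07000398.1 had the largest differences of these 10, with levels of 11.2 ± 1.49 FPKM in WDD, 15.9 ± 4.08 in COPD and 2.32 ± 1.30 in control lungs (SD, n = 5 each).

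Whether WDD lungs kept the level of COPD lungs depended on how the libraries were scaled. After median-of-ratios scaling, all 31 genes still exceeded control by at least 1 in both groups, but 25 lay at least 0.5 lower in WDD than in COPD lungs, and 6 met the rule. The median WDD minus COPD difference over the 31 was then -0.74, against -0.11 as deposited. Quantile normalisation left 14 of the 31 within the rule, and scaling to the FPKM sum left 7. That sum without mitochondrially encoded genes left 15, with 12 at least 0.5 lower in WDD than in COPD lungs. None of the 31 met the rule under all 4, and Pax5, Snrpd2, AABR07015057.1, AABR07015081.2 and AABR07035539.1 met it under 3. All genes together had a median WDD minus COPD difference of 0.54 as deposited and 0.03 after median-of-ratios scaling. The direction from control was the same under every scaling for each of the 31 except Tmsb4x under quantile normalisation.

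**Figure D5:**
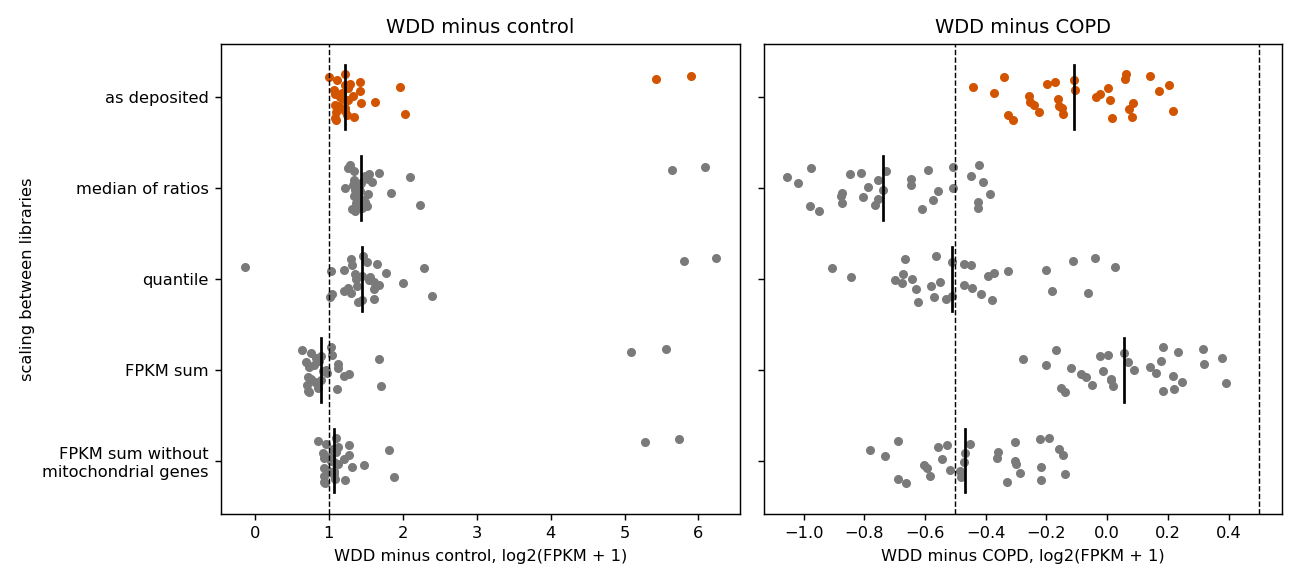
WDD minus control (left) and WDD minus COPD (right) on log2(FPKM + 1) for the 31 genes (points) under 5 scalings of the libraries, with the median of the 31 (black line) and the bounds of the rule (dashed). On the left the AABR loci with the largest differences stay above 5 and Tmsb4x lies below 0 under quantile normalisation, and on the right 25 points lie past -0.5 after median-of-ratios scaling.

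Single libraries also decided some memberships. Between 24 and 31 of the 31 genes met the rule when 1 library was left out, and 15 of them met it in all 15 cases. Snrpd2 met it in 9 cases, LOC103695118 in 10 and Tmsb4x in 11. Without COPD 1 and COPD 5 together, 20 of the 31 met the rule.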

How the data were processed

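Lung RNA of 15 libraries was measured by RNA sequencing. Per the labels' protocols, TRIzol was used for the extraction and 1 ug of total RNA went into each library, prepared with the NEBNext Ultra kit. Per the submitters' processing notes, cutadapt, HISAT2 and StringTie were used with the build Rnor_6.0; not given in the sources used here are versions, annotation release and strand use. The deposited values are FPKM computed by the authors, which relate each gene to its length and to the whole library, so a library with more of one RNA class has less of the rest. Counts could not be recovered, so there are no counting intervals, and relative depth was estimated from the smallest steps of low values.

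The deposited FPKM entered as log2(FPKM + 1), with genes of at least 1 FPKM in at least 5 libraries kept. A single limma 3.58.1 model (R 4.3.3, moderated variances with a trend) held the 3 groups of libraries, two-sided, with Benjamini-Hochberg adjustment over 13172 genes and calls at an adjusted p under 0.05. Each SE and p-value of this fit uses 1 spread per gene, estimated over all 3 groups. Those of WDD minus control thus include the spread of COPD lungs. Tables and figures used Python 3.11.15, numpy 2.4.6, pandas 2.3.3 and matplotlib 3.10.9. The code was tested on simulated data with known changes.

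The rule for the members used every contrast, so limma's calls on them are given only as counts beside those of all genes, and nothing is read from them. The members and all gene lists were chosen with earlier results of these data known, and short and long transcripts were listed by hand without lengths from an annotation. Members were named in detail where they carry a proper symbol and rank among the largest of the smaller of both differences, the highest levels, or the gene lists. Ccdc12, Gng5, the locus names and the grouping of 13 small-protein genes were chosen after their values were seen.

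Alternatives were pseudocounts of 0.1 and 0.5, a mean FPKM of at least 5, no filter, 4 other scalings (median of ratios, quantile, FPKM sum, FPKM sum without mitochondrially encoded genes), a block for the replicate number, library weights, a fit of only the 2 groups compared, each library left out, COPD 1 and COPD 5 left out, and WDD 4 and WDD 5 averaged. The replicate numbers were taken not to pair libraries, since the correlation exceeded 0.1 in 1 of 15 same-numbered pairs. Promoters are from RefSeq on GRCr8, matched by symbol; gene positions on Rnor_6.0 are not given.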

Additional observations from a re-analysis of the deposited data

Results flagged for a closer look

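In each of the 3 groups, the lowest and highest library of 17 named genes was set against the other 4 by Dixon's criterion (0.71 for 5 values), which chance meets in about 1 in 20 groups. Of 51 groups, 5 met it, and 4 of these concern control 1. Gnas stood at 114 FPKM in control 1, against 67.9 to 75.9 in the other controls. Txn1 stood at 374 FPKM in control 1, against 192 to 224 in the others. Tnni3 stood at 11.3 FPKM in control 1, against 2.95 to 3.98 in the others, and Tma7 at 119 FPKM, against 62.6 to 64.9. The remaining case is Tma7 in WDD 2, at 62.0 FPKM against 166 to 227 in the other WDD libraries.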

How the results depend on the processing

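31 genes met the rule as deposited, 146 after median-of-ratios scaling, 123 under quantile normalisation and 8 after scaling to the FPKM sum, of which 6, 14 and 7 were among the 31; without mitochondrially encoded genes 15 of the 31 met it. These scalings shift whole libraries: the median gene moves from -0.81 to -0.05 (COPD minus control) under median of ratios. With 1 library left out, 27 to 47 genes met the rule, 47 without control 1, and 24 to 31 of the 31 did. Without COPD 1 and COPD 5, 20 of the 31 did, and the cause was not tested. Of 850 differences of named members under alternatives, 820 moved by less than 1 SD, 28 moved by more and 2 changed sign, both of Tmsb4x under quantile normalisation (-0.14 in WDD and -0.17 in COPD against control).

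Genes called higher in WDD than in control lungs numbered 836, but 2093 with library weights, 1642 with only the 2 groups, 2071 after median-of-ratios scaling, 2288 under quantile normalisation, 304 after scaling to the FPKM sum and 1486 without COPD 1 and COPD 5; the cause of the changes with weights, 2 groups or fewer libraries was not tested. Those called lower numbered 4079, but 2555 at a mean FPKM of at least 5, where 9259 genes were tested, and 2262, 2408 and 7581 under the 3 scalings in that order. In COPD lungs 1084 were higher, but 3947, 3737 and 481 under the 3 scalings, and 8749 lower, but 4296 and 3893 under the first 2 of them. With 1 library left out, the counts ranged over 592 to 1161 and 3343 to 4914 (WDD higher and lower) and 929 to 1310 and 8385 to 8981 (COPD). With the replicate number as a block, which does not pair these libraries, they were 740 and 3897 in WDD and 1046 and 8701 in COPD lungs. FPKM carries no read totals, so what depth limits could not be set.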
